A study of Homo sapiens with 5 samples.

Results

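MDA-MB-231, a triple-negative breast cancer cell line with mesenchymal features, was treated for 4 h with CGI-1746 and LU-102 together, and the RNA of these cells was set against that of cells given bortezomib for 4 h. The 2 libraries, of 5 in the series, were chosen by their treatment labels, with mock-treated cells of the same line and time as the common baseline. CGI-1746 is labelled a BTK inhibitor, LU-102 is labelled an inhibitor of the submitters' own, and bortezomib stands in the study as the control for what proteasome inhibition changes. The sources used here give no doses, no vehicle and no number of cultures behind a library. Each condition has 1 library of total RNA, so no value has a replicate error, no difference was tested, and words such as higher and lower compare single libraries. Of 4202 listed genes, 4198 had a level of 1 or more in at least 1 of the 2 libraries and were compared. The last gene inside this limit was LINC01004, whose higher level was 1.005, and the nearest of the 4 genes outside it was TMPO-AS1 at 0.940.

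The proteasome degrades proteins tagged with ubiquitin, and cells in which it is blocked are known to build up misfolded protein. Cells answer such stress through HSF1, which switches on cytosolic chaperones of the HSP70, HSP90 and HSP40 families, and through NRF2, which switches on antioxidant genes. They also use ATF4 and CHOP, the transcription factors of the integrated stress response, while further factors raise chaperones of the endoplasmic reticulum, metallothioneins and the proteasome subunits themselves.

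A level is the authors' normalized signal per gene. It behaved as a signal divided by gene length, which the sources used here do not state. Differences are on the log2(level + 1) scale, the combination minus bortezomib unless a pair is named. The line was recognisable with the combination. With bortezomib its markers were lower, with VIM well above a level of 1 and CAV1 below it, so recognition there is weaker. VIM, an intermediate filament of mesenchymal cells, had a level of 90.3 with the combination, 18.3 with bortezomib and 92.1 in mock, and CAV1 of caveolae had 8.75, 0.895 and 9.64 in the same libraries. Of the mesenchymal list 14 of 16 genes were measured, of the epithelial and luminal list 6 of 14 with KRT18 highest at 37.6, 5.69 and 35.5, and the 9 markers of blood and endothelial cells were not analysed here.

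The RNA pools of the 2 treatments were far apart. The middle gene of all compared was 0.99 higher with the combination than with bortezomib, a ratio of 1.99, while against mock the middle gene lay at 0.03 with the combination and at -0.98 with bortezomib. A level of 1 or more was reached by 4177 genes with the combination, 2231 with bortezomib and 4161 in mock. Protein-coding levels summed to 40888 with the combination, 12763 with bortezomib and 37984 in mock. The 5 most abundant genes, mostly short RNAs, held 61.6%, 73.8% and 55.9% of all summed levels in these 3 libraries. With bortezomib they included RNA45SN3, a long copy of the 45S precursor of ribosomal RNA. Its level was 13832 with bortezomib, 876 with the combination and 643 in mock. Depth was similar in the 3 libraries, about 16993400, 18598100 and 16839700 counted reads with the combination, with bortezomib and in mock if the levels are RPKM, a unit that the sources used here do not name. In a bulk library fewer cells and less RNA per cell cannot be told apart, and a level is a share of the RNA sequenced rather than an amount per cell.

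At a 2-fold limit, 2073 genes or 49.4% of the 4198 were higher with the combination than with bortezomib, and 53 genes or 1.26% were lower. This split rests on the scale. When the levels were rescaled by the median of ratios the numbers were 472 higher and 261 lower, and when rescaled to equal sums over protein-coding genes they were 276 higher and 459 lower. For this reason differences are also given relative to the all-gene median, that is, after subtracting 0.99. Smaller positive differences on the deposited scale, such as those of ATF4, BAG3, HSF1, GCLM, MCL1, CDKN1A, XBP1, SQSTM1, SLC30A1, MALAT1 and NEAT1, were below 0 after both rescalings. On the relative scale 342 genes, 8.15%, were 2-fold or more higher with the combination and 254 genes, 6.05%, were lower.

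**Figure D1:**
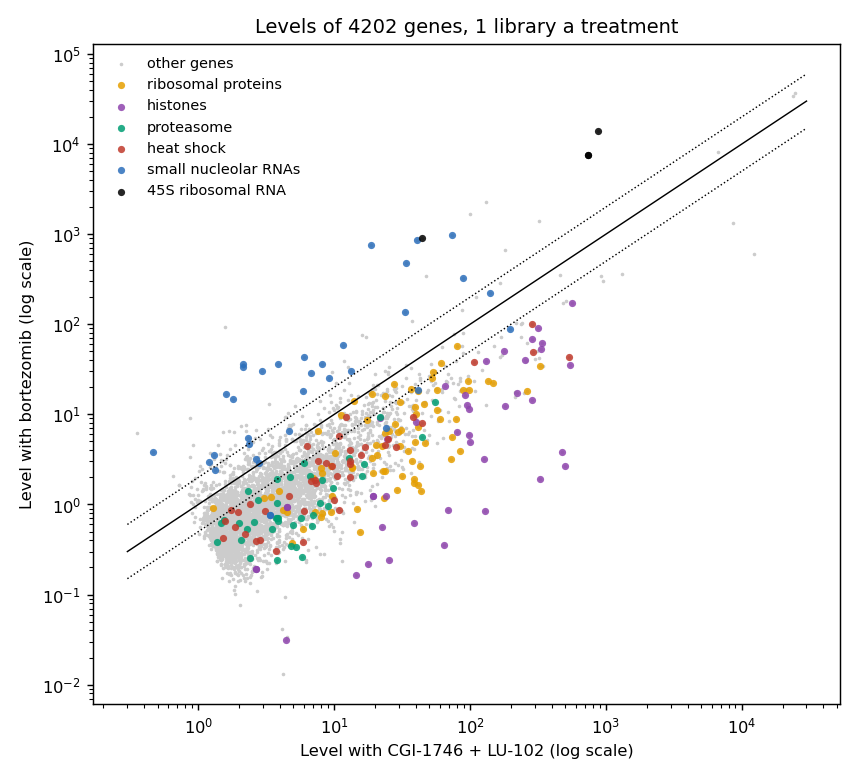
Each point is 1 of 4202 genes, with its level in CGI-1746 + LU-102 treated cells on the x axis and in bortezomib treated cells on the y axis, both on log scales. The solid line marks equal levels and the dotted lines 2-fold differences without a pseudocount. Most genes lie under the solid line, histone and ribosomal protein genes far under it, and small nucleolar RNAs and the 45S ribosomal RNA precursors mostly above it.

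Few stress genes stood above mock under both treatments. Of 196 measured genes on 8 stress lists, 1 gene, HSPA6, was 2-fold or more above mock under both, 4 were so with the combination only (DNAJB1, HMOX1, HSPA1A and HSPA1B), 1 with bortezomib only (CEBPB) and 190 under neither. Across all genes compared with mock, 0.167% were 2-fold or more higher with the combination and 1.38% with bortezomib, while 0.0477% were lower with the combination and 48.1% with bortezomib. Of the stress genes, 120 were 2-fold or more lower than mock with bortezomib and 0 with the combination. Both comparisons use the same mock library, so they are not independent of each other.

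Relative to the all-gene median of each comparison, 4 stress genes were 2-fold or more above mock under both treatments: HSPA1A, HSPA1B, HSPA6 and HMOX1. Only DNAJB1 was so with the combination alone, and 9 genes were so with bortezomib alone: CEBPB, PPP1R15A, SERTAD1, GADD45B, PSAT1, SQSTM1, SYVN1, ZFAND2A and RPS27A. On this scale 7.52% of all genes were 2-fold or more higher than mock with bortezomib, so 13 of 196 stress genes is a share near the background, and 7.83% were lower. For the combination the background stayed at 0.167% higher and 0.0477% lower. At a limit of 1.5-fold on the deposited scale, 4 genes were higher under both treatments and 6 with the combination only. These 6 (DNAJB1, DDIT4, FTL, MT1E, MT1X and MT2A) were all lower than mock by that limit with bortezomib on this scale. With bortezomib 153 of the 196 stress genes, 78.1%, were lower by that limit, and the upper quartile of all genes stood at -0.57. This direction was thus the common one. The share of all genes past 1.5-fold was not counted, on this scale or relative to the medians. At 1.5-fold relative to the all-gene medians, 4 were higher under both, 5 with the combination only and 21 with bortezomib only, and of the 6 only MT1E was lower than mock with bortezomib.

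HSPA1A, HSPA1B, HSPA6 and DNAJB1 carry near an annotated start the letters of the heat shock element, the DNA word read by HSF1. The start regions of HSPA1B, HSPA6 and DNAJB1 are shown because these genes represent the shared and the combination-only classes. They are RefSeq windows of GRCh38.p14 from 250 bases before to 50 bases after an annotated start, 5′ to 3′ on the gene's strand, with GAANNTTC or TTCNNGAA in capitals. HSPA1B lies at chr6:31827488-31827787 on the plus strand, HSPA6 at chr1:161524290-161524589 on the plus strand, and DNAJB1 at chr19:14518348-14518647 on the minus strand, which of its 3 annotated starts is the one with the most matches.
HSPA1B: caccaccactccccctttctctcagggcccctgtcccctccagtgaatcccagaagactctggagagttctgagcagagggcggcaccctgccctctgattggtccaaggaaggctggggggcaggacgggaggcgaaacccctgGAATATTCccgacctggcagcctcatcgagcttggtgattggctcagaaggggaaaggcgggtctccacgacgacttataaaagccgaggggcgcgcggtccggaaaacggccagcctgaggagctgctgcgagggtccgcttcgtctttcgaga
HSPA6: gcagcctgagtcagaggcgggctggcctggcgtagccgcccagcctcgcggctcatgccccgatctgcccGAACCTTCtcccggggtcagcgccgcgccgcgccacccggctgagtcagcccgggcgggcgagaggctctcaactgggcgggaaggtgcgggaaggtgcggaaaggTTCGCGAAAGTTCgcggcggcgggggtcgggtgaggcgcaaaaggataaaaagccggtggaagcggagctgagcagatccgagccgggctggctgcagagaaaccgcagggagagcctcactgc
DNAJB1: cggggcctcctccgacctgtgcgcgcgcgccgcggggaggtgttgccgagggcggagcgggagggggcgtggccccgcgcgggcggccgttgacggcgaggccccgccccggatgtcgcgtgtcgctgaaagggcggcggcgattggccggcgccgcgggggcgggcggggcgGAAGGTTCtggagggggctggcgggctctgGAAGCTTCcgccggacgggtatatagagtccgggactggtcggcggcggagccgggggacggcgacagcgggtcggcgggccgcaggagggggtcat
The HSPA1B window held 1 match and the DNAJB1 window 2. HSPA6 held 3, of which a pair share the letters GAA within 1 capital run. HSPA1A had 1 match. Among the 9 genes relatively higher with bortezomib alone, ZFAND2A had 1 match and the other 8 had none in any of their windows. Searched on both strands, the word occurs in 13.5% of all 35116 windows, and the antioxidant response element TGANNNNGC occurs in 41.8% of them. These matches describe letters in a window and say nothing of binding.

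HSPA6, a strictly stress-inducible HSP70, had a level of 6.30 with the combination, 4.44 with bortezomib and 1.43 in mock. It was the only stress gene 2-fold or more above mock under both treatments on the deposited scale, by 1.59 with the combination and 1.16 with bortezomib. Behind these levels stand about 252, 194 and 56.8 reads, estimated from the gene's single exon of 2355 bp. The level ratio of the combination to bortezomib was 1.42 with an exact 95% interval of 1.17 to 1.72, which like all intervals here covers counting error only. HSPA6 was thus higher with the combination, but relative to the all-gene median it stood 0.57 lower there than with bortezomib, and it stood at -0.67 and -1.04 after the median-of-ratios and protein-coding rescalings.

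HSPA1B, which encodes the main inducible HSP70 chaperone, had a level of 284 with the combination, 99.5 with bortezomib and 62.2 in mock. Both treatments were above mock, by 2.17 with the combination and 0.67 with bortezomib, and the combination exceeded bortezomib by a ratio of 2.85 (exact 95% interval 2.76 to 2.95). HSPA1A, its neighbour with a nearly identical coding sequence, had 107 with the combination, 38.0 with bortezomib and 24.0 in mock. Reads of this pair can be split between them in a way the table does not show, so they are best read together. Rescaled to equal protein-coding sums, both genes were slightly lower with the combination than with bortezomib, at -0.17 for HSPA1B and -0.18 for HSPA1A.

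HMOX1, the heme oxygenase that NRF2 switches on, had a level of 13.5 with the combination, 7.80 with bortezomib and 4.44 in mock. It was 1.41 above mock with the combination and 0.69 with bortezomib, and relative to the all-gene medians 1.38 and 1.67. Its order between the treatments therefore depends on the scale: 0.72 higher with the combination as deposited, 0.27 lower relative to the median, and at -0.45 and -0.83 after the 2 rescalings.

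DNAJB1, an HSP40 co-chaperone that hands substrates to HSP70, separated the treatments in direction. Its level was 23.7 with the combination, 4.56 with bortezomib and 10.6 in mock, so it was 1.08 above mock with the combination and 1.07 below mock with bortezomib. Relative to the all-gene median the bortezomib value was -0.09, close to that of the middle gene. The direct difference was 2.15, or 1.16 relative to the median.

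The rest of the cytosolic chaperones were mostly near or modestly above mock with the combination and low with bortezomib. Of 41 measured heat shock genes, of 52 listed, 32 were 2-fold or more higher with the combination than with bortezomib and 0 lower, with a median difference of 1.53 against 0.99 for all genes. Relative to the median 10 were higher and 0 lower, where all genes gave 49.4% higher as deposited and 8.15% relative to the median. Against mock the list median was 0.16 with the combination and -1.38 with bortezomib. With the combination 34 of the 41 lay above the all-gene median of that comparison and 7 below it. HSP90AA1, a cytosolic HSP90, had 37.9 with the combination, 9.33 with bortezomib and 26.7 in mock, 0.49 above mock with the combination. HSPA8, the constitutive HSP70, showed the widest gap of the list at 3.59, with a level of 539 with the combination, 43.8 with bortezomib and 429 in mock. HSP90AB1, the constitutive cytosolic HSP90, had 290 with the combination, 49.7 with bortezomib and 252 in mock. STIP1, which couples HSP70 to HSP90, had 10.9, 0.865 and 9.18 in the same order. All 3 of these housekeeping chaperones were below mock with bortezomib even relative to its median, at -2.28 for HSPA8, -1.34 for HSP90AB1 and -1.47 for STIP1.

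Not every inducible chaperone followed the HSP70 genes. BAG3, an HSP70 co-chaperone that directs aggregates to autophagy, had 2.39 with the combination, 1.02 with bortezomib and 1.57 in mock, a difference of 0.75. HSPH1, which recharges HSP70, had 5.99 with the combination, 0.847 with bortezomib and 4.28 in mock. HSF1 itself had 1.97, 0.819 and 1.93 in these libraries, within 0.02 of mock with the combination. Relative to the all-gene median of each comparison with mock, BAG3 stood 0.37 higher with the combination and 0.63 higher with bortezomib, whereas HSPH1 stood 0.37 higher and 0.54 lower.

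**Figure D2:**
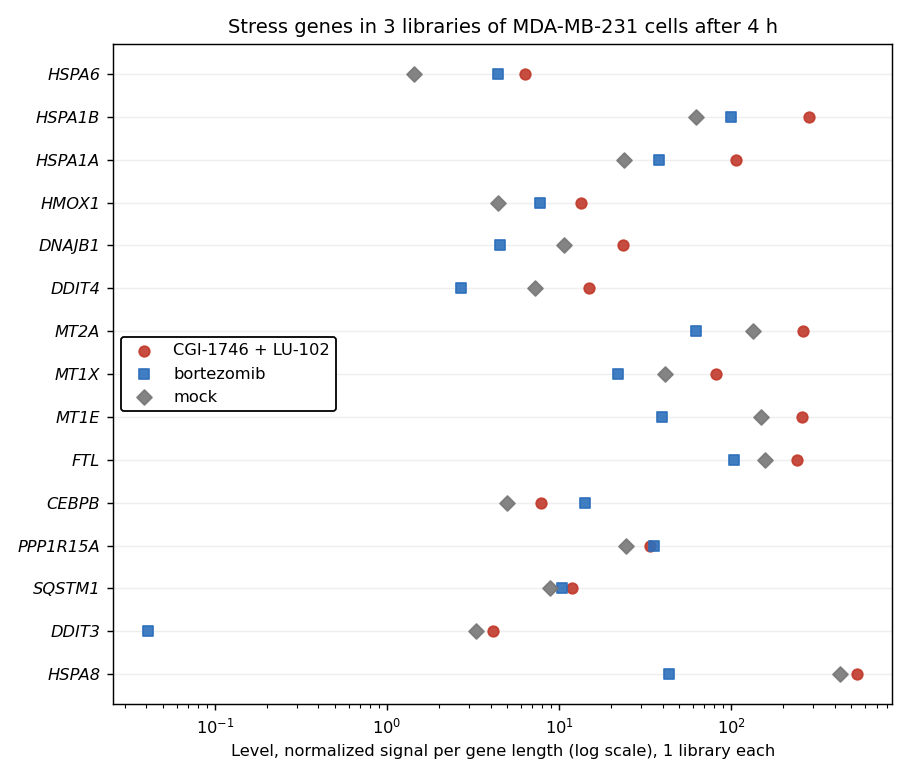
Levels of 15 stress genes on a log x axis in the CGI-1746 + LU-102 library (circles), the bortezomib library (squares) and the mock library (diamonds), 1 library each. HSPA6, HSPA1B, HSPA1A and HMOX1 lie above mock under both treatments. DNAJB1, DDIT4, the metallothionein genes and FTL lie above mock with the combination and below it with bortezomib, and CEBPB is highest with bortezomib.

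CEBPB was the 1 stress gene 2-fold or more above mock with bortezomib alone on the deposited scale. This bZIP transcription factor, which dimerises with ATF4 and CHOP, had a level of 7.81 with the combination, 14.1 with bortezomib and 5.01 in mock. The combination stood at 0.55 above mock and bortezomib at 1.33. The level ratio of the combination to bortezomib was 0.552 (exact 95% interval 0.477 to 0.639), estimated from about 280 and 555 reads over its single exon.

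Genes of the ATF4 and CHOP list lay on both sides of the all-gene median. Of 22 measured genes, of 35 listed, 6 were 2-fold or more higher with the combination than with bortezomib and 0 lower. Of all genes 49.4% were higher and 1.26% lower. Relative to the median 2 were higher, a share near the 8.15% of all genes, and 5 were lower, against 6.05%. The list median was 0.68, or -0.31 relative to all genes. The 2 relatively higher genes were DDIT3 and DDIT4. DDIT3, which encodes CHOP, had 4.12 with the combination, 0.0410 with bortezomib and 3.31 in mock, a level near 0 in the bortezomib library. DDIT4, a stress-induced inhibitor of mTORC1, had 14.9 with the combination, 2.70 with bortezomib and 7.28 in mock, 0.94 above mock with the combination and 1.16 below it with bortezomib. Its level was 14.1 with CGI-1746 alone and 8.42 with LU-102 alone, so the higher level is not particular to the combination.

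The 5 relatively lower genes of that list held nearly equal or higher levels with bortezomib. PPP1R15A, also called GADD34, the phosphatase subunit that ends the integrated stress response, had 33.9 with the combination, 35.7 with bortezomib and 24.4 in mock. GADD45B, a growth arrest gene, had 10.7 with the combination, 12.2 with bortezomib and 10.4 in mock. SERTAD1, a cell cycle regulator, had 3.62, 3.77 and 3.05, and PSAT1 of serine synthesis had 2.28, 2.50 and 2.30 in these libraries; CEBPB is the fifth. ATF4 itself differed by 0.59 between the treatments, at 87.9 with the combination, 58.01 with bortezomib and 77.5 in mock. The difference of PPP1R15A from mock was thus similar in both treatments as deposited, 0.46 with the combination and 0.53 with bortezomib, and apart only relative to the medians, at 0.43 and 1.51.

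Chaperones of the endoplasmic reticulum were largely at mock levels with the combination. Of 26 measured genes, of 30 listed, 15 were 2-fold or more higher with the combination than with bortezomib and 0 lower, and 5 were higher relative to the median: P4HB, PDIA4, MANF, CALR and CANX. Of all genes 49.4% and 8.15% were higher on these scales. The list median was 1.28, and against mock 0.08 with the combination and -1.04 with bortezomib. HSPA5, the HSP70 of the reticulum known as BiP, had a level of 172 with the combination, 45.5 with bortezomib and 167 in mock. P4HB, a disulfide isomerase, had 19.7 with the combination, 2.84 with bortezomib and 16.6 in mock. SYVN1, the ubiquitin ligase that marks misfolded proteins of the reticulum, had 7.29, 6.76 and 5.81, and XBP1, a transcription factor of the unfolded protein response, had 9.07, 6.55 and 7.28. Both were slightly higher with the combination as deposited and lower relative to the all-gene median, at -0.90 for SYVN1 and -0.58 for XBP1.

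Proteasome genes were not 2-fold above mock under either treatment. Of 38 measured subunits and assembly factors, 29 were 2-fold or more higher with the combination than with bortezomib, 0 were lower, and 11 were higher relative to the median. Of all genes 49.4% were higher as deposited and 8.15% relative to the median. The list median was 1.53 between treatments, 0.08 for the combination against mock and -1.43 for bortezomib against mock. The middle gene of all lay at 0.99, 0.03 and -0.98 in these comparisons. With bortezomib 38 of 38 genes were below mock, 29 of them by 2-fold or more, against 48.1% of all genes. PSMB5, the catalytic subunit that bortezomib binds, had 6.66 with the combination, 2.08 with bortezomib and 6.57 in mock. PSMB6, another catalytic subunit, had 16.4, 2.78 and 12.8. PSMD2, a scaffold of the regulatory particle, showed the widest gap of the list at 2.78, with 44.2 with the combination, 5.59 with bortezomib and 40.2 in mock. NFE2L1, the factor known to raise proteasome genes when the proteasome is blocked, had 17.6, 5.46 and 16.2.

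Genes of ubiquitin and aggregate clearance had unlike values. UBB, which encodes a chain of ubiquitin units, had a level of 300 with the combination, 41.5 with bortezomib and 290 in mock, a difference of 2.82 between the treatments. RPS27A, which encodes ubiquitin fused to a ribosomal protein, had equal levels of 14.0 under both treatments and 11.03 in mock. SQSTM1, the p62 receptor that carries ubiquitinated cargo to autophagy, had 11.8 with the combination, 10.5 with bortezomib and 8.81 in mock. ZFAND2A, a proteasome-associated gene of arsenite stress, had 1.47, 1.22 and 1.16. Over the 26 measured genes of the list, 18 were 2-fold or more higher with the combination, against 49.4% of all genes, and 0 lower, and the median of 1.16 lay near that of all genes.

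Antioxidant genes other than HMOX1 gave no common pattern. Of 22 measured NRF2 genes, of 35 listed, 14 were 2-fold or more higher with the combination than with bortezomib, 0 were lower, and the list median of 1.20 lay 0.21 above that of all genes, of which 49.4% were higher. TXN and PRDX1 alone were 2-fold or more higher relative to the median, a share near the 8.15% of all genes. TXN, thioredoxin, had 9.07 with the combination, 1.44 with bortezomib and 9.18 in mock, and PRDX1, a peroxiredoxin, had 17.6, 3.25 and 16.4. GCLM, a subunit of the enzyme that starts glutathione synthesis, had 6.53 with the combination, 3.89 with bortezomib and 6.23 in mock. FTL, the light chain of the iron store ferritin, had 240, 103 and 157, and its difference of 1.21 turned to -0.06 after median-of-ratios scaling and to -0.46 after scaling to equal protein-coding sums.

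Metallothioneins, small metal-binding proteins, and other genes of the metal response had a median difference from mock of 0.65 with the combination and -0.90 with bortezomib. MT2A had a level of 261 with the combination, 62.1 with bortezomib and 135 in mock. MT1X had 81.6 with the combination, 21.98 with bortezomib and 41.1 in mock. MT1E had 257, 39.6 and 150 in these libraries. Against mock MT1X and MT2A stood 0.97 and 0.95 higher with the combination, just short of 2-fold, and 0.87 and 1.10 lower with bortezomib. All 6 measured genes of the metal response list, of 10 listed, were above mock with the combination and below it with bortezomib as deposited. Relative to the all-gene median of bortezomib against mock, 4 of the 6 lay above 0 and the list median was 0.08, with MT1E at -0.92 and MT2A at -0.12 below. SLC30A1, the zinc exporter controlled by the same metal sensor MTF1, had 42.3 with the combination, 28.1 with bortezomib and 41.6 in mock, within 0.03 of mock with the combination. Metallothionein genes are near-identical copies, so the split of reads among them is uncertain.

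Genes of p53 and apoptosis followed the bulk of the transcriptome. Of 15 measured, of 30 listed, 7 were 2-fold or more higher with the combination than with bortezomib, a share near that of all genes, 0 were lower, and 0 passed 2-fold relative to the median in either direction. The list median of 0.96 was -0.22 after scaling to equal protein-coding sums. CDKN1A, the cell cycle inhibitor p21, had 9.23 with the combination, 4.26 with bortezomib and 7.05 in mock. MCL1, a short-lived survival protein, had 51.8, 36.2 and 60.5. BIRC2, an inhibitor of cell death, had 5.35, 0.920 and 6.48.

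**Figure D3:**
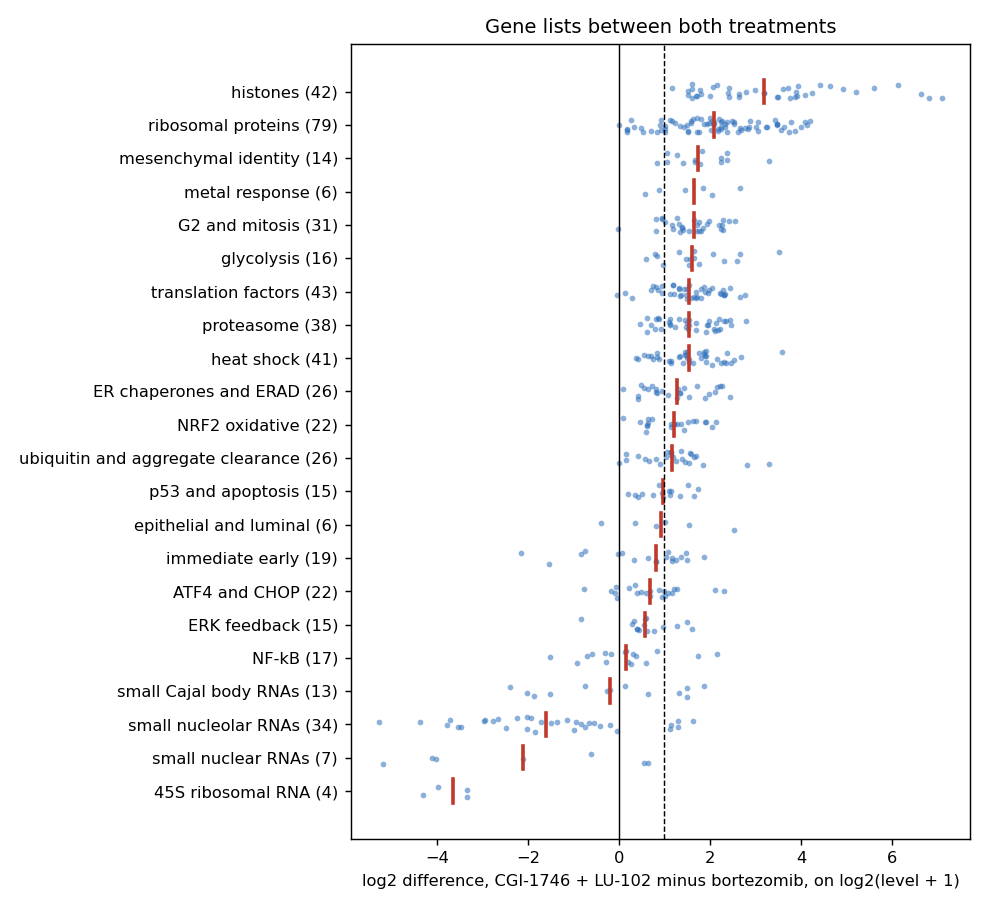
Each point is 1 gene and each red bar the list's median on an x axis of log2 differences, CGI-1746 + LU-102 minus bortezomib, with the number of genes compared in parentheses. The solid line marks 0 and the dashed line the all-gene median of 0.99. Histone genes lie farthest to the right with a median of 3.18, heat shock and proteasome genes have medians of 1.53, and the small nucleolar RNAs and 45S ribosomal RNAs have medians of -1.60 and -3.66.

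Beyond stress, replication-dependent histone genes, whose short mRNAs lack a poly(A) tail, had the highest list median of the comparison. All 42 measured histone genes were 2-fold or more higher with the combination, with a median of 3.18, and 32 were so relative to the all-gene median. Among all genes these shares were 49.4% and 8.15%. The 10 highest protein-coding genes among those with a level of 5 or more were histone genes, led by H2BC17, H2BC11 and H2BC4. H2BC17 had a level of 502 with the combination, 2.65 with bortezomib and 514 in mock. Its roughly 3986, 23 and 4045 reads give a level ratio of the combination to bortezomib of 189.7 (exact 95% interval 126 to 299.6). H2BC11 had 325 with the combination, 1.90 with bortezomib and 285 in mock. Against mock the list median was 0.19 with the combination and -2.99 with bortezomib. Histone genes are near-identical copies, so values of single genes are less certain than the list.

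Ribosomal protein genes showed the same direction with clear exceptions. Of 79 measured, 66 were 2-fold or more higher with the combination than with bortezomib and 0 lower, the median was 2.10, and 45 were higher relative to the median. Of all genes 49.4% were higher as deposited and 8.15% relative to the median. RPL19 of the large subunit had 43.4 with the combination, 1.43 with bortezomib and 41.8 in mock. RPS10 of the small subunit had 19.0 with the combination, 16.6 with bortezomib and 16.3 in mock, and RPS28 had 11.2, 9.73 and 7.34. RPS10 and RPS28 were chosen after their values were seen. Ribosomal protein genes have many processed pseudogene copies, and the sources used here do not say how such reads were assigned.

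On the deposited scale few mRNAs were higher with bortezomib, whereas relative to the all-gene median 162 of the 3903 protein-coding genes found in GENCODE 29 were so by 2-fold. Of the 53 genes lower with the combination by 2-fold as deposited, 19 were protein-coding and 20 small nucleolar RNAs. WDR74 led the coding genes, with a level of 47.1 with the combination, 344 with bortezomib and 43.2 in mock. The gene (chromosome 11, 62832905 to 62841809 in GRCh38.p14) overlaps the U2 small nuclear RNA gene RNU2-2 (62841619 to 62841809), and reads of the 2 cannot be told apart here. JUND, an AP-1 transcription factor with a single exon, had 16.1 with the combination, 75.3 with bortezomib and 15.8 in mock. Its level ratio of the combination to bortezomib was 0.214 (exact 95% interval 0.195 to 0.235), from about 529 and 2700 reads.

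The other coding genes of this kind had varied roles. VHL, the ubiquitin ligase subunit that recognises HIF, had 3.33 with the combination, 13.0 with bortezomib and 3.22 in mock. CXCL8, the chemokine interleukin-8, had 9.70 with the combination, 29.7 with bortezomib and 15.4 in mock. It was the only one of the 10 lowest coding genes with a level of 5 or more that was also lower than mock with the combination by more than 0.5, at -0.62. FOSB, an AP-1 gene of the immediate early list, had 0.917 with the combination, 4.57 with bortezomib and 1.31 in mock. RTL8C, MIDN, CTSF, SELENOM, TP53I13 and HES4 completed the 10 lowest coding genes among those with a level of 5 or more in either library, with differences of -1.64, -1.54, -1.49, -1.46, -1.41 and -1.40.

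The medians of signalling lists lay below that of all genes. Of all genes 49.4% were 2-fold or more higher with the combination, 1.26% were lower, and 6.05% were lower relative to the median. Of 17 NF-kB genes compared, 2 were 2-fold or more higher with the combination and 1 lower, and 7 were lower relative to the median. The NF-kB list median was 0.15, or -0.84 relative to all genes. The 2 higher genes were RELA and BIRC2, at 2.14 and 1.73. RELA, the p65 subunit, had 7.004 with the combination, 0.814 with bortezomib and 6.45 in mock. CSF2, which encodes the cytokine GM-CSF, had 1.70, 4.11 and 2.34. Of 19 immediate early genes 9 were higher, a share near the 49.4% of all genes, 2 were lower, JUND and FOSB, and 5 were lower relative to the median, against 6.05% of all genes. Of 15 genes of ERK feedback 3 were higher and 0 lower, with DUSP5, a phosphatase of nuclear ERK, highest at 1.60. The medians of the NF-kB, ATF4 and CHOP, immediate early and ERK lists were below 0 after both rescalings, so the direction of these lists on the deposited scale is not stable, while relative to the all-gene median each stayed below 0 under every setting tried, except the immediate early list at 0.18 with a pseudocount of 5.

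Most small nucleolar RNAs, 4 of 7 small nuclear RNAs and all 4 copies of the 45S ribosomal RNA precursor were 2-fold or more higher with bortezomib. Sequences of 2 box C/D small nucleolar RNAs of ribosomal RNA maturation are shown because they are among the members with the widest gaps. The DNA letters come from GENCODE 29 transcripts, 5′ to 3′ on the gene's strand. Capitals mark every match to the letters of box C (TGATGA) or box D (CTGA). SNORD3A held 1 match to box C and 3 to box D, and SNORD17 held 1 and 5. These are letter matches only, and which of them are the boxes of the RNA was not tested. The coordinates are those of RefSeq in GRCh38.p14. SNORD3A, the U3 RNA, lies at chr17:19188016-19188232 and SNORD17 at chr20:17962710-17962946.
SNORD3A: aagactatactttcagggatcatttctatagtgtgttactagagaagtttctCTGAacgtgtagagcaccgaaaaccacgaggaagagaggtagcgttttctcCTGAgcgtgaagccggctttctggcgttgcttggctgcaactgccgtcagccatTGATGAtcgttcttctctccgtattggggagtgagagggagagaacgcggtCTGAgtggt
SNORD17: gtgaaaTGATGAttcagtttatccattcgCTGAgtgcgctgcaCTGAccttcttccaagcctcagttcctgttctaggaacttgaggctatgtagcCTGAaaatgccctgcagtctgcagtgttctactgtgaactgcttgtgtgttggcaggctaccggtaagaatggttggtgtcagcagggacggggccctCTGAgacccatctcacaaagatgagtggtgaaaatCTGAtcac
The letters of box C occur in 77.1% of 275 SNORD genes of GENCODE 29 and those of box D in 98.2%. Such matches are thus common in the class and do not set these members apart.

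SNORD3A had a level of 40.8 with the combination, 868 with bortezomib and 22.5 in mock. About 150 reads with the combination and 3504 with bortezomib give a level ratio of the combination to bortezomib of 0.0470 (exact 95% interval 0.0395 to 0.0552). SNORD17 had 74.0 with the combination, 983 with bortezomib and 52.1 in mock. Of 34 small nucleolar RNAs measured, 20 were 2-fold or more lower with the combination and 5 higher, with a median of -1.60, and 29 were lower relative to the median. Of all genes 1.26% were lower and 49.4% higher as deposited, and 6.05% were lower relative to the median. Small nuclear RNAs had a median of -2.12. Of the 7, 2 lay the other way as deposited, RNVU1-6 at 0.64 and RNU6ATAC at 0.55, both named after their values were seen. They rest on about 23 and 15 reads and about 5 and 3 reads, with the combination and with bortezomib. Their ratio intervals, 0.839 to 3.46 and 0.355 to 11.7, include equal levels. After the 2 rescalings both were lower with the combination, at -0.47 and -0.84 for RNVU1-6 and -0.28 and -0.58 for RNU6ATAC. RNU4-2, the U4 RNA of the spliceosome, had 131 with the combination, 2273 with bortezomib and 122 in mock. RNA45SN2, a copy of the precursor of ribosomal RNA, had 44.0, 897 and 33.8 in these libraries. All 4 measured 45S copies were lower with the combination, with differences of -4.32 to -3.35, but the copies share sequence with each other and with mature ribosomal RNA, and 2 of them, RNA45SN1 and RNA45SN5, hold identical values.

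RNase RNAs ran the other way. RMRP, the RNA of the RNase MRP complex that cuts precursor ribosomal RNA, had a level of 12369 with the combination, 603 with bortezomib and 8339 in mock, a level ratio of the combination to bortezomib of 20.5 (exact 95% interval 19.8 to 21.3). RPPH1, the RNA of RNase P, which trims transfer RNA, had 8618 with the combination, 1328 with bortezomib and 7110 in mock. By contrast RN7SL1 of the signal recognition particle had 24051, 34062 and 18035, and RN7SK, which holds the elongation factor P-TEFb in an inactive state, had 6709, 8193 and 5360. The nuclear RNAs MALAT1, at 458, 350 and 432, and NEAT1, at 24.7, 19.4 and 14.8, differed by 0.39 and 0.33 between the treatments. RPPH1, RN7SL1, RN7SK, MALAT1 and NEAT1 were chosen after their values were seen.

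Gene structure and level moved with the difference. Among protein-coding genes the median difference between the combination and bortezomib was 0.73 for genes with a mock level of 1 to 2 and 2.24 for genes of 50 or more, with the steps between at 1.06, 1.37, 1.49 and 1.81. Part of this slope comes from the pseudocount by construction, and with a pseudocount of 0.1 these medians ran 1.37, 1.65, 1.74, 1.67, 1.94 and 2.29. Abundant lists such as the chaperones, ribosomal proteins and histones are to be read against this slope as well as against the all-gene median. The part of level in the result of any list was not tested.

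The 162 protein-coding genes relatively lower with the combination had a median of 5 exons and a GC content of 57.7%, against 7 exons and 50.9% in the 3422 genes within 2-fold of the median. Genes of 1 exon other than histones were relatively lower with the combination in 15.5% of 155 cases, genes of 2 to 4 exons in 6.20%, of 5 to 9 in 3.74% and of 10 or more in 2.11%. By GC content the share was 1.34% under 40%, 2.71% from 40 to 50%, 4.20% from 50 to 60% and 8.56% at 60% or more. JUND, with 1 exon and a GC content of 69.7%, and CEBPB, HSPA1A, HSPA1B and HSPA6, each of 1 exon, belong to the single-exon class, and the part of exon number or GC content in their values was not tested.

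**Figure D4:**
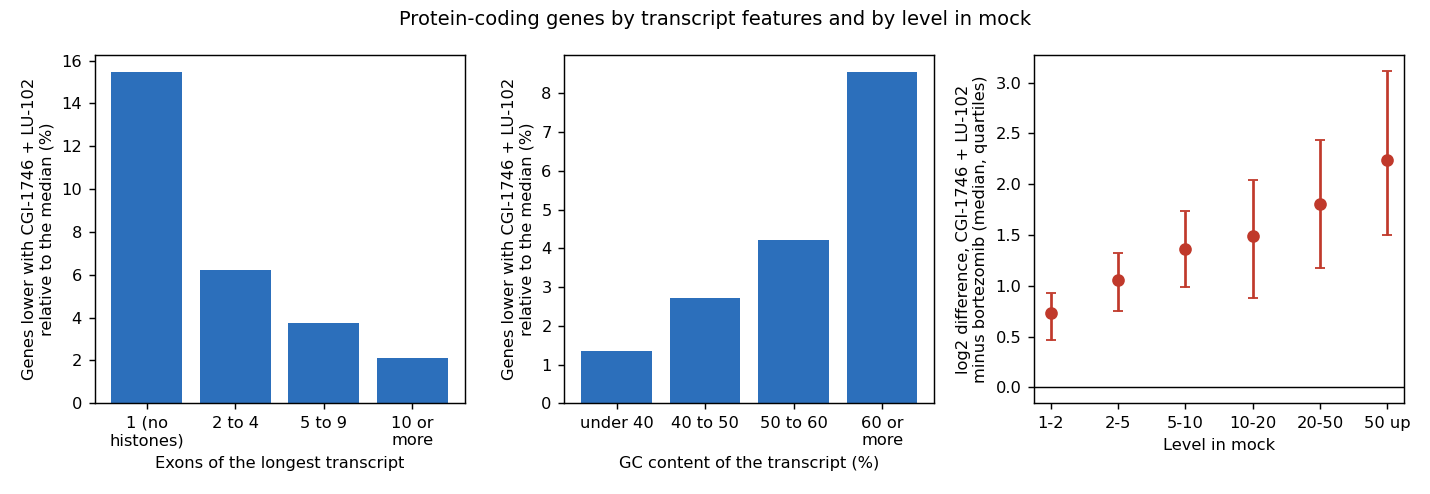
The left and middle panels give the percentage of protein-coding genes 2-fold or more lower with CGI-1746 + LU-102 than with bortezomib relative to the all-gene median, by exon number and by GC content of the longest transcript in GENCODE 29. The right panel gives medians with quartile bars of the log2 difference by level in mock. The share falls with exon number, from 15.5% to 2.11%, and grows with GC content, from 1.34% to 8.56%, and the difference grows with level, from 0.73 to 2.24.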

How the data were processed

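The 5 libraries, 1 per condition, hold total RNA of the MDA-MB-231 line, sequenced with 150 bp paired reads, per the labels' protocols. Partek and hg38 are named per the submitters' processing notes, and the sources used here give no version, aligner, annotation, strand or normalization. The values are a normalized expression signal per gene, named least squares means per the file headers, for 4202 genes whose 5 levels sum to at least 5.04. Another 7 columns repeat these levels in other comparisons and were not used. The deposited p-values, which take 1 library per condition, were not used either.

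Differences were taken as log2(level + 1) among genes with a level of 1 or more in either library, with a 2-fold limit, as deposited and less the all-gene median. No test across genes was run. Level times length came in multiples of 0.5 times 1 value per library, 58.8 with the combination, 53.8 with bortezomib and 59.4 in mock, for 50 of 52, 41 of 43 and 47 of 52 short RNAs within 0.1. Dividing by it gave reads for short RNAs and, roughly, for single-exon mRNAs. The 95% intervals of their ratios are exact (Clopper-Pearson) and hold counting error alone, and nothing says whether a library pools several cultures.

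The members and the 23 gene lists were chosen with earlier results of these data known. Genes named are measured members of the 8 stress lists, the 10 highest and 10 lowest coding and the 5 highest and 5 lowest noncoding genes with a level of 5 or more, and up to 4 members of each other list; exceptions are marked, and a few genes are not reported here. Symbols of 4126 genes matched RefSeq (GRCh38.p14), 3913 of them protein-coding, and exons and GC content of 3903 came from GENCODE 29. HMOX1 has no start window in the table used. Alternatives were pseudocounts of 0.1 and 5, no filter and a minimum level of 5, both rescalings, and limits of 1.5-fold and 3-fold. The rule was tried on simulated data that had no overall shift between the libraries. The data here have such a shift, so that trial does not show how the rule does under it. The software was Python 3.11.15 with pandas 2.3.3, numpy 2.4.6, matplotlib 3.10.9 and scipy 1.17.1.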

Additional observations from a re-analysis of the deposited data

How the results depend on the processing

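The 2073 genes higher with the combination than with bortezomib were 511 with a pseudocount of 5, 1013 with a minimum level of 5, 472 after median-of-ratios scaling, 276 after scaling to equal protein-coding sums and 714 at 3-fold. The 53 lower genes were 261 and 459 after these scalings and 33 at 3-fold. Relative to the all-gene median, the 342 higher genes were 147 among genes with a level of 5 or more and 124 at 3-fold. The 254 relatively lower genes were 622 and 57 with pseudocounts of 0.1 and 5, 395 and 457 after the scalings and 94 at 3-fold. The 1 stress gene above mock under both treatments became 0 with a pseudocount of 5 and with a minimum level of 5, which HSPA6 reaches neither with bortezomib nor in mock, and 4 after either scaling and at 1.5-fold. The 4 found relative to the median became 1 with a pseudocount of 5. The all-gene median of 0.99 was 0.26 after median-of-ratios scaling and -0.00 after scaling to equal protein-coding sums. Among named genes 2-fold or more apart, FTL turned to -0.0589 after the first scaling, and FTL, HSPA1A and HSPA1B to -0.46, -0.18 and -0.17 after the second. Smaller positive differences, such as 0.59 for ATF4 at -0.67 and -1.07, also turned after both. No paired analysis was possible because each condition has 1 library, and no replicate could be left out. Genes near a level of 1 rest on few reads, and the depth is known only through the assumption on the unit.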

Other observations

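Genes of cell division were near mock with the combination and low with bortezomib. Of 31 measured genes of G2 and mitosis, of 39 listed, 26 were 2-fold or more higher with the combination and 0 lower, with a median difference of 1.64, against 49.4% of all genes higher. Relative to the all-gene median 7 were higher, against 8.15% of all genes, and 1 was lower, CDC25B at -1.01, an activator of cyclin-dependent kinase named after its value was seen. MKI67, a coat protein of mitotic chromosomes, had a level of 19.5 with the combination, 2.80 with bortezomib and 23.6 in mock, and CDC20, an activator of the anaphase-promoting complex, had 14.6, 2.19 and 14.8. KIF20A, a kinesin of cytokinesis, showed the widest gap at 2.55. Against mock the list median was -0.11 with the combination and -1.70 with bortezomib.

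Genes of glycolysis and of translation followed the same order. Of all genes 49.4% were 2-fold or more higher with the combination, and 8.15% were higher and 6.05% lower relative to the all-gene median. Of 16 glycolysis genes 12 were 2-fold or more higher with the combination and 0 lower, with a median of 1.60. Relative to the all-gene median 5 were higher and 0 lower. GAPDH had a level of 213 with the combination, 17.5 with bortezomib and 181 in mock, and LDHA, lactate dehydrogenase, had 58.1, 8.38 and 59.4. Of 43 translation factors 34 were higher and 0 lower, with a median of 1.54, and relative to the all-gene median 10 were higher and 1 lower. EIF4A1, the helicase of the cap-binding complex, had 77.9 with the combination, 14.7 with bortezomib and 75.1 in mock. Galectin LGALS1 had the widest gap of the mesenchymal list, at 62.7 with the combination, 5.50 with bortezomib and 48.4 in mock.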
